A study of Mus musculus with 8 samples.

Results

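Adipokines are hormones and other signalling proteins that fat tissue releases, and 10 genes commonly grouped under that name were followed here: Adipoq, Lep, Retn, Nampt, Rarres2, Apln, Sfrp5, Nnat, Itln1 and Lcn2. They were chosen by gene name, each with a single row among the 54532 genes of the deposited table, and 8 of the 10 were above the filter on low values. The tissue was inguinal white adipose tissue (iWAT), the fat pad under the skin of the groin, from male mice on a high-fat diet. The KLF10AKO group (n = 4 libraries) carried an adipocyte knockout of the zinc-finger transcription factor KLF10, and the WT group (n = 4 libraries) was wild type. The diet was common to both groups. The sources used here state neither the Cre driver, nor the age of the mice, nor how many animals a library came from, and p-values therefore refer to the spread among libraries, which may be technical.

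Adiponectin (Adipoq) and leptin (Lep) are made almost entirely by fat cells: leptin signals the size of the fat store to the brain, and adiponectin raises insulin sensitivity in liver and muscle. Resistin (Retn) is a fat cell hormone in mice, although in humans it comes mainly from macrophages. Chemerin (Rarres2) is a chemoattractant and adipokine, apelin (Apln) is the peptide ligand of a receptor on vessels and heart, and SFRP5 binds Wnt proteins outside the cell. Nampt is the rate-limiting enzyme of the NAD salvage pathway and is also found outside cells, lipocalin 2 (Lcn2) binds iron-carrying siderophores, and intelectin 1 (Itln1) is a lectin known as omentin. Neuronatin (Nnat) differs from the rest, since it encodes a small membrane proteolipid of the endoplasmic reticulum and is not known as a circulating hormone.

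In KLF10AKO iWAT, 7 of the 8 adipokine genes above the filter were lower than in WT and none was higher. Adipoq, Lep, Retn and Rarres2 were each more than 3-fold lower in mean level, Sfrp5 and Nnat somewhat less, and Apln only slightly, while Nampt did not pass the test. Lcn2 was read at a trace in both groups and Itln1 was not read in any library. Of all 16012 genes tested with limma at an adjusted p of 0.05, 34.9% were lower and 39.4% higher (74.3% in either direction). In 6 of the 8 adipokine genes every KLF10AKO library lay below every WT library, as it did in 33.0% of all genes tested, with a further 36.2% wholly above. The 16 adipocyte markers that are not among these genes fell as well, all 16 of them, with a median log2 change of -1.80 that can be set beside the -1.55 of the 8 adipokine genes and the 0.05 of all genes tested. In tissue RNA of this kind, fewer adipocytes and less of a transcript per adipocyte cannot be told apart.

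The composition of the libraries differed between the groups beyond the targeted gene. Klf10 itself averaged 9.60 ± 0.157 FPKM in KLF10AKO and 18.2 ± 2.09 FPKM in WT (SD, n = 4 each). FPKM are fragments per kilobase of gene, scaled by the authors to a library size that was not the plain sum of reads (see the processing section). The log2 change of Klf10, -0.88 (limma adjusted p = 8.96e-06), was smaller in size than the median of the adipocyte markers. Relative to those markers, by the scaling described below, Klf10 lay at 0.90 (limma adjusted p = 9.82e-05). Under that scaling 95.7% of all genes tested were higher and the median gene lay at 1.82, above Klf10. The 16 adipocyte markers summed to between 3605 and 5051 FPKM in KLF10AKO and between 14131 and 15127 FPKM in WT. The 8 B cell markers summed to between 1042 and 1543 FPKM in KLF10AKO, against 2.65 to 3.69 FPKM in WT, and the 8 T cell markers to between 244 and 364 FPKM, against 2.01 to 3.27 FPKM. The 8 skeletal muscle markers reached 5673, 4294 and 9993 FPKM in KLF10AKO replicates 1 to 3 but 34.1 FPKM in replicate 4, against 165 to 219 FPKM in WT. The WT sum was nearly all Acta1, at 20.9 FPKM in KLF10AKO replicate 4 and 160.5 to 213 FPKM in WT, whereas Tnnt3, Tnni2 and Mylpf were higher in KLF10AKO replicate 4 than in every WT library. The 8 placental trophoblast markers summed to between 0 and 0.0520 FPKM in KLF10AKO and, in libraries labelled as male fat, to between 21.4 and 54.7 FPKM in WT. The part of these differences in the adipokine values was not tested. The adipokine genes are also given below with KLF10AKO replicate 4 alone and relative to adipocyte markers.

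**Figure D1:**
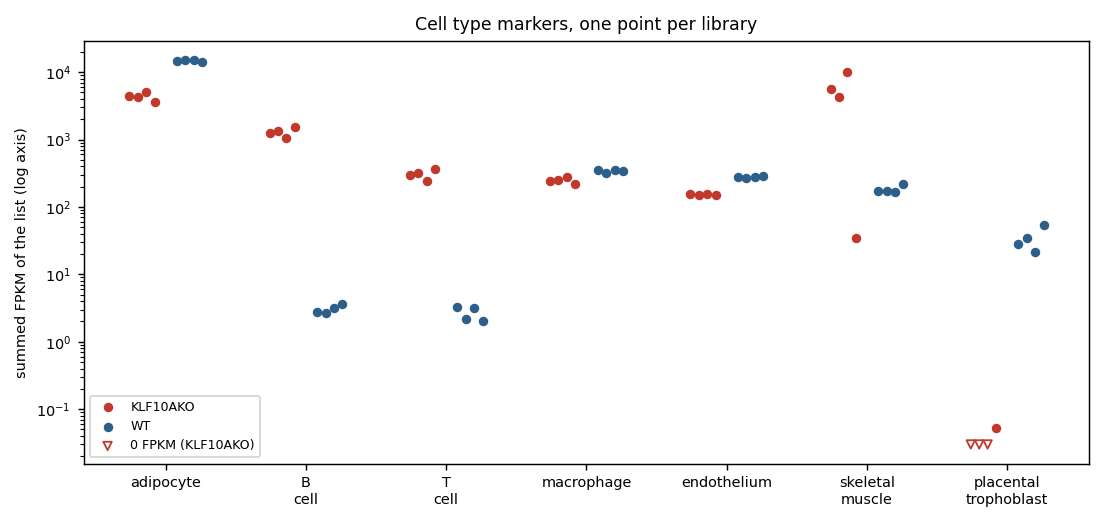
Summed FPKM of 7 lists of cell type markers (log axis), with a point per library, KLF10AKO in red and WT in blue; open triangles mark libraries at 0 FPKM. The adipocyte list lies between 3605 and 5051 in KLF10AKO and between 14131 and 15127 in WT, while the B and T cell lists lie far higher in KLF10AKO and muscle is high in KLF10AKO replicates 1 to 3.

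Adipoq (ENSMUSG00000022878, mm10 chromosome 16, 23146536 to 23158028, plus strand, 4 merged exons) was the adipokine gene of highest level per length in all 8 libraries. It stood at 585, 575, 672 and 464 FPKM in KLF10AKO replicates 1 to 4, against 1956, 2096, 2136 and 1811 FPKM in WT replicates 1 to 4. Every KLF10AKO library lay below every WT library, and replicate 4 was the lowest of its group. The means were 574 ± 85.3 FPKM in KLF10AKO and 1999.5 ± 148 FPKM in WT (SD, n = 4 each), a 3.48-fold lower mean. The change in log2(FPKM + 0.5) was -1.81, with a standard error of 0.131 and a 95% interval of -2.11 to -1.51, at a limma adjusted p of 2.49e-06. An exact permutation test, two-sided, gave p = 0.0286, the smallest possible with 4 libraries against 4.

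Lep (ENSMUSG00000059201, chromosome 6, 29060220 to 29073877, plus strand) followed the same course. It stood at 257, 240, 315 and 197 FPKM in KLF10AKO replicates 1 to 4, against 860, 881, 840 and 822 FPKM in WT. The groups did not overlap, and the KLF10AKO libraries spread more widely (252 ± 48.9 FPKM) than the WT libraries (851 ± 25.5 FPKM, SD, n = 4 each). The log2 change was -1.77 (standard error 0.134, 95% interval -2.08 to -1.47, limma adjusted p = 3.27e-06, exact permutation p = 0.0286), with a 3.37-fold lower mean. The ratio of Adipoq to Lep, the transcript counterpart of the adiponectin to leptin ratio measured in blood, was 2.28, 2.40, 2.13 and 2.35 in KLF10AKO replicates 1 to 4, against 2.27, 2.38, 2.54 and 2.20 in WT. These ratios overlapped between the groups, and the pair of hormone transcripts differed between the groups by nearly the same factor.

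The bases before the start sites of Adipoq and Lep, which fell together, and of Nampt, which did not pass, are shown for comparison (250 bases before the RefSeq start, 5′ to 3′ on the gene's strand, GRCm38.p6, the assembly called mm10). RefSeq promoters were matched for 9 of the 10 genes by symbol. Capitals mark matches on either strand to 5 short motifs: the GC box GGGCGG known from Sp and KLF factors, the CACCC box known from KLF factors, the forkhead site TGTTTAC, the CCAAT box and the TATA box with the letters TATAAA. Matches that adjoin run together in capitals. The RefSeq start of Nampt lies inside the span that the deposited table gives for the gene.
Adipoq (chr16:23146286-23146535, plus strand): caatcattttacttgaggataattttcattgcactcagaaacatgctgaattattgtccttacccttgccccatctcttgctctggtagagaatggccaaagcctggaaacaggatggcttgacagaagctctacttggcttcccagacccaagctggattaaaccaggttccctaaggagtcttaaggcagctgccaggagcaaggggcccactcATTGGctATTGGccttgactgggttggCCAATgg
Lep (chr6:29059971-29060220, plus strand): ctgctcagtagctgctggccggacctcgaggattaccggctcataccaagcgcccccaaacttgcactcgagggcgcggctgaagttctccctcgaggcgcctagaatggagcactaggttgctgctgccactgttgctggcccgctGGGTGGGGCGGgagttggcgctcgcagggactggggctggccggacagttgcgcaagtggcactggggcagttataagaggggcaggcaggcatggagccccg
Nampt (chr12:32820085-32820334, plus strand): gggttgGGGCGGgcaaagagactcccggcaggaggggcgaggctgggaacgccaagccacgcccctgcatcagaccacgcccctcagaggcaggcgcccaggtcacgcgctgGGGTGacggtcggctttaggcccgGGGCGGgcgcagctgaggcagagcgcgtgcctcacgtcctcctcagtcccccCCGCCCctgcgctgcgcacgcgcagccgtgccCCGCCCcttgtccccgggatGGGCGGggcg

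The Adipoq window held 3 matches to the CCAAT box and none to the other 4 motifs. The Lep window held 1 GC box and, adjoining it, 1 CACCC box, and the Nampt window held 5 GC boxes and 1 CACCC box. Of the other tested genes with a matched promoter, Sfrp5 had 1 GC box and 1 CACCC box, and Nnat had 2 CACCC boxes. Apln had 1 GC box, and Retn, which fell as well, had no match to any of the motifs. Among 32851 RefSeq promoter windows of the same length, a GC box was found in 32.7%, a CACCC box in 52%, a CCAAT box in 33.8%, a forkhead site in 3.17% and a TATA box in 12.4%. No forkhead site was found in the windows of the 9 genes. These matches are descriptions of letters and not of binding.

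Retn (ENSMUSG00000012705, chromosome 8, 3655770 to 3660110, plus strand) was measured at 210, 207, 243 and 181 FPKM in KLF10AKO replicates 1 to 4, against 652, 678, 749 and 556 FPKM in WT. All KLF10AKO values lay below all WT values, and the mean was 3.13-fold lower. The log2 change was -1.64 (standard error 0.120, 95% interval -1.92 to -1.37, limma adjusted p = 2.65e-06, exact permutation p = 0.0286). Among its paralogues, Retnla, a product of fat tissue and of alternatively activated macrophages, averaged 164 ± 46.7 FPKM in KLF10AKO and 389 ± 143 FPKM in WT (SD, n = 4 each). Its change of -1.19 passed (limma adjusted p = 0.00938), but the groups overlapped, with WT replicate 4 at 189 FPKM, and with KLF10AKO replicate 4 alone it did not (-1.76, limma adjusted p = 0.0632). Retnlb and Retnlg had at most 0.267 FPKM in any library.

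Rarres2 (ENSMUSG00000009281, chromosome 6, 48569696 to 48572789, minus strand) was the most even of the fallen genes within each group. It stood at 43.8, 41.4, 48.0 and 36.9 FPKM in KLF10AKO replicates 1 to 4, against 126, 133, 135 and 130 FPKM in WT. The groups lay far apart, with a 3.07-fold lower mean and a log2 change of -1.62 (standard error 0.0809, 95% interval -1.80 to -1.43, limma adjusted p = 3.07e-07, exact permutation p = 0.0286). Of its 2656 exon bases, 892 overlap exons of Lrrc61 on the opposite strand, and since the strand setting of the counting is not given, reads of the pair cannot be told apart there.

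Sfrp5 (ENSMUSG00000018822, chromosome 19, 42197971 to 42202252, minus strand) was measured at 95.7, 95.6, 114 and 71.8 FPKM in KLF10AKO replicates 1 to 4, against 254, 268, 252 and 272 FPKM in WT. KLF10AKO replicate 4 was well below the other 3 of its group, and no value overlapped those of WT. The mean was 2.78-fold lower and the log2 change was -1.49 (standard error 0.126, 95% interval -1.77 to -1.20, limma adjusted p = 6.94e-06, exact permutation p = 0.0286). Sfrp5 was by far the most abundant secreted frizzled-related gene of this fat pad: Sfrp2 averaged 0.866 ± 0.299 FPKM in KLF10AKO and 1.97 ± 0.825 FPKM in WT (log2 change -0.83, limma adjusted p = 0.0125; -0.45 and 0.403 with KLF10AKO replicate 4 alone), and Sfrp1 0.536 ± 0.0769 and 0.784 ± 0.197 FPKM (SD, n = 4 each) without passing. Frzb and Sfrp4 were under the filter.

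Nnat (ENSMUSG00000067786, chromosome 2, 157560078 to 157562522, plus strand), an imprinted gene expressed from the paternal allele, fell less than the hormones above. It stood at 311, 304, 373 and 252 FPKM in KLF10AKO replicates 1 to 4, against 801, 650, 845 and 684 FPKM in WT. The groups did not overlap, the mean was 2.40-fold lower and the log2 change was -1.27 (standard error 0.138, 95% interval -1.58 to -0.96, limma adjusted p = 3.33e-05, exact permutation p = 0.0286). The level of Lep minus that of Nnat was -54.1, -64.2, -57.3 and -54.9 FPKM in KLF10AKO replicates 1 to 4, against 58.7, 231, -4.94 and 138 FPKM in WT. Nnat thus stood above Lep in all 4 KLF10AKO libraries and in WT replicate 3. Nnat lies inside the span of Blcap, which runs on the opposite strand, shares 0 exon bases with it, and shares 87 with the miRNA gene Gm23134. Blcap averaged 29.1 ± 2.76 FPKM in KLF10AKO and 62.4 ± 1.02 FPKM in WT (SD, n = 4 each), a log2 change of -1.09 (limma adjusted p = 1.32e-06). The other imprinted genes listed beside Nnat, namely Mest, Peg3, Sgce and Peg10, fell too, with Mest, a gene linked to fat cell enlargement, at -1.99 (limma adjusted p = 9.42e-07). All 6 genes of that list, Nnat included, were lower (34.9% of all genes tested), also with KLF10AKO replicate 4 alone (29.7%). Relative to the adipocyte markers, by the scaling described below, 5 were higher and 1, Mest, lower, where 95.7% of all genes were higher and 0.400% lower, and with replicate 4 alone 4 were higher and 0 lower (93.3% and 0.350% of all genes).

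**Figure D2:**
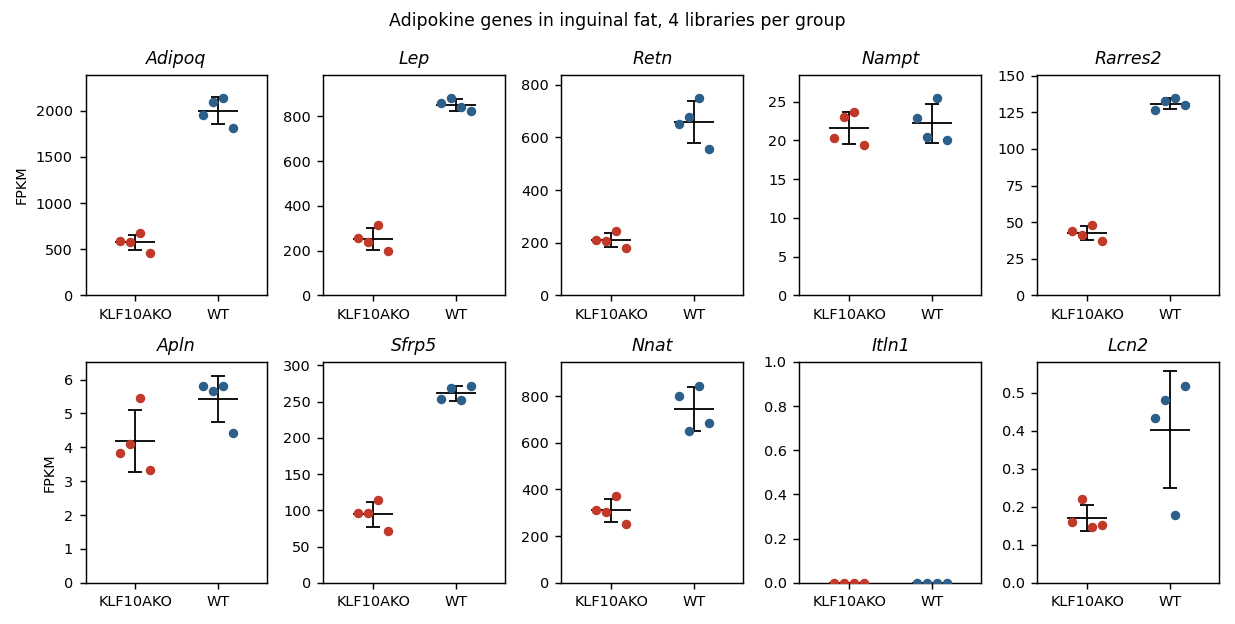
FPKM of each of the 10 adipokine genes, with a point per library (KLF10AKO in red on the left, WT in blue on the right) and bars for the mean ± SD of 4 libraries; each panel has its own linear axis from 0. Adipoq, Lep, Retn, Rarres2, Sfrp5 and Nnat lie in groups that do not overlap, Nampt, Apln and Lcn2 overlap, and Itln1 is at 0 throughout.

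Nampt (ENSMUSG00000020572, chromosome 12, 32819545 to 32853349, plus strand) was measured at 20.3, 23.0, 23.7 and 19.4 FPKM in KLF10AKO replicates 1 to 4, against 22.8, 20.5, 25.4 and 20.05 FPKM in WT. The groups overlapped throughout. The log2 change was -0.04 with a 95% interval of -0.25 to 0.18 (limma adjusted p = 0.740, exact permutation p = 0.743), so a difference as large as that of the other hormones lay outside the interval, on the authors' scaling. Apln (ENSMUSG00000037010, chromosome X, 48025146 to 48034853, minus strand) stood at 3.82, 4.10, 5.46 and 3.33 FPKM in KLF10AKO replicates 1 to 4, against 5.83, 5.65, 5.82 and 4.41 FPKM in WT. KLF10AKO replicate 3 and WT replicate 4 crossed over into the range of the other group. Its log2 change of -0.35 (standard error 0.143, 95% interval -0.68 to -0.03) only just passed with limma (adjusted p = 0.0488), and the exact permutation p was 0.0571. The call was lost when KLF10AKO replicate 1, 2 or 4 or WT replicate 1, 2 or 3 was left out, with an adjusted p of 0.0891 to 0.118 in those 6 fits.

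Lcn2 (ENSMUSG00000026822, chromosome 2, 32384633 to 32388252, minus strand) had 8, 11, 7 and 7 reads in KLF10AKO replicates 1 to 4, against 17, 21, 7 and 20 reads in WT. These are 0.161, 0.221, 0.147 and 0.151 FPKM in KLF10AKO, against 0.434, 0.481, 0.178 and 0.519 FPKM in WT, and WT replicate 3 lay among the KLF10AKO values. Its mean over the 8 libraries, 0.287 FPKM, was under the filter of 0.5, and the exact permutation p was 0.0571. With no filter, where 43.1% of genes passed, the log2 change was -0.41 (limma adjusted p = 0.0397), a value that the added 0.5 holds close to 0. The neutrophil markers, cells that also make lipocalin 2, summed to between 4.85 and 6.44 FPKM in KLF10AKO and between 10.2 and 11.7 FPKM in WT, and the WT sum was mostly S100a8 (1.61 ± 0.390 FPKM in KLF10AKO and 8.84 ± 0.966 FPKM in WT, SD, n = 4 each). Of the 4 neutrophil markers above the filter 1 was higher, 1 lower and 2 did not pass. Cxcr2, a chemokine receptor also found on other leukocytes, went the other way (2.96 ± 0.395 FPKM in KLF10AKO and 0.0740 ± 0.0498 FPKM in WT, log2 change 2.59, limma adjusted p = 2.32e-07). Its WT mean was under the filter of 0.5 FPKM, so Cxcr2 was tested only through its KLF10AKO values. The granule genes Ngp, Camp, Ltf and Mpo were at or near 0, and the part of neutrophils in the Lcn2 reads was not tested. Itln1 (ENSMUSG00000038209, chromosome 1, 171518122 to 171535294, minus strand) had 0 reads in all 8 libraries. With 3 reads taken as the most that a count of 0 allows, its level was at most 0.139 to 0.149 FPKM in the KLF10AKO libraries and at most 0.158 to 0.179 FPKM in the WT libraries. Markers of mesothelium, the lining of visceral fat where intelectin is made in humans, summed to at most 0.616 FPKM in KLF10AKO and 1.13 FPKM in WT.

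The KLF10AKO libraries differed from each other in the same way for every adipokine gene above the filter. Replicate 3 had the highest and replicate 4 the lowest value of its group in 8 of 8 genes, and the same held for 16 of 16 adipocyte markers. The share of all genes tested with this order was not counted, so it cannot be called particular to these genes. Mean adipocyte marker levels lay at -1.75, -1.81, -1.53 and -2.03 log2 units from the WT mean in KLF10AKO replicates 1 to 4, with the B cell sum highest in replicate 4 and lowest in replicate 3. Replicate 4, with its far lower muscle sum than replicates 1 to 3, was also set alone against WT, on the assumption that it varies like the WT libraries. Again 7 of 8 adipokine genes were lower and 0 higher, where of all genes tested 62.1% passed, 29.7% as lower and 32.4% as higher. The log2 changes were then -2.10 for Adipoq, -2.10 for Lep, -1.85 for Retn, -1.81 for Rarres2, -1.86 for Sfrp5, -1.55 for Nnat and -0.62 for Apln, and Nampt was at -0.18 (limma adjusted p = 0.346).

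Each gene was then read relative to adipocytes, by shifting every library so that the 16 adipocyte markers had the same mean log2 level. The median log2 change of all genes moved by 1.78 under this scaling and 96.1% of them passed, 95.7% as higher and 0.400% as lower, while 12 of the 16 markers themselves did not pass, so a gene near 0 here is a gene that followed the adipocyte markers. Adipoq lay at -0.03 (95% interval -0.21 to 0.15, limma adjusted p = 0.716) and Lep at 0.01 (95% interval -0.17 to 0.19, adjusted p = 0.933). Retn at 0.13 (95% interval -0.06 to 0.33, adjusted p = 0.157) and Rarres2 at 0.16 (95% interval -0.01 to 0.34, adjusted p = 0.0698) did not pass either. These 4 intervals leave room for differences of at most about 0.34 log2 units from the marker mean. For Rarres2 the KLF10AKO libraries, at 0.089 to 0.218 on this scale, lay above the WT libraries, at -0.086 to 0.074. For Retn the groups overlapped.

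The remaining 4 genes above the filter were higher than the mean of the adipocyte markers, each to its own degree. Of the 16 markers 2 also passed as higher, Adrb3 at 0.53 and Acvr1c at 0.30, and 2 as lower, Gpd1 at -0.40 and Acsl1 at -0.29. Sfrp5 and Nnat thus lay within the range of the markers, and Apln and Nampt above it. Sfrp5 lay at 0.29 (95% interval 0.09 to 0.49, limma adjusted p = 0.01004), and at 0.17 without passing when KLF10AKO replicate 4 stood alone (adjusted p = 0.266). Nnat lay at 0.51 (95% interval 0.32 to 0.70, adjusted p = 1.88e-04), and its KLF10AKO libraries were close together at 0.49, 0.53, 0.54 and 0.48 above the WT mean. Apln lay at 1.42 (95% interval 1.18 to 1.67, adjusted p = 3.62e-07) and Nampt at 1.74 (95% interval 1.52 to 1.96, adjusted p = 5.44e-08), and Nampt lay close to the 1.82 of the median gene. With KLF10AKO replicate 4 alone, 3 of the 8 were higher under this scaling, namely Nnat, Apln and Nampt, where 93.6% of all genes tested passed, 93.3% as higher and 0.350% as lower. Apln is also made by endothelial tip cells, and the 8 endothelial markers, which include Apln and its receptor, summed to between 150 and 157 FPKM in KLF10AKO and between 266 and 284 FPKM in WT. The part of vessels in the Apln value was not tested.

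**Figure D3:**
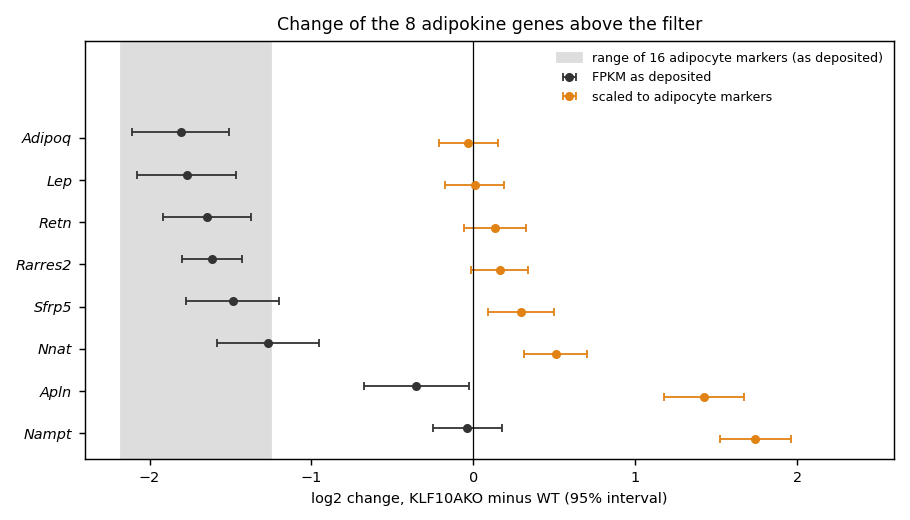
Log2 change (KLF10AKO minus WT, points, with 95% intervals) of the 8 adipokine genes above the filter, with FPKM as deposited in black and after scaling to adipocyte markers in orange; the grey band spans the changes of the 16 adipocyte markers with FPKM as deposited. The changes of Adipoq, Lep, Retn, Rarres2, Sfrp5 and Nnat fall inside the band, with Nnat at its upper edge, while Apln at -0.35 and Nampt at -0.04 lie outside it.

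By the distance between centred log2 profiles over the 8 libraries, the protein-coding genes nearest to Adipoq among 12856 were Npr3, the clearance receptor of natriuretic peptides (0.124 log2 units), Sparc, a matrix protein (0.133), and Decr1, an enzyme of unsaturated fatty acid oxidation (0.146). Those nearest to Lep were Npr3 (0.139), the growth factor gene Fgf10 (0.141) and Sparc (0.143). Retn was nearest to the potassium channel gene Kcns3 (0.102), the inhibin subunit gene Inhbb (0.106) and Tmem120a, a membrane protein gene of fat cells (0.115). The 8 libraries share their 2 groups, and the distances follow mostly the difference between them.

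The receptors and binding partners of these proteins did not move as a block. Of 14 above the filter, out of 16 in the table, 10 were lower, 3 higher and 1 did not pass, with a median log2 change of -0.83, beside 34.9% lower and 39.4% higher of all genes tested. The counts were the same with KLF10AKO replicate 4 alone (29.7% lower and 32.4% higher of all genes). Relative to the adipocyte markers 11 of the 14 were higher and 0 lower, where 95.7% of all genes were higher. The adiponectin receptor Adipor2 averaged 50.4 ± 4.71 FPKM in KLF10AKO and 169 ± 9.31 FPKM in WT, while its sister receptor Adipor1 averaged 32.8 ± 4.44 FPKM in KLF10AKO and 42.3 ± 0.753 FPKM in WT (SD, n = 4 each). Their log2 changes were -1.74 for Adipor2 and -0.37 for Adipor1 (limma adjusted p = 1.68e-07 and 0.00558), so Adipor2 was the more abundant receptor per length in every library but by a much smaller margin in KLF10AKO. Cdh13, the T-cadherin that holds adiponectin on vessel walls, changed by -1.11 (adjusted p = 2.64e-05).

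Lepr, the leptin receptor, went against its hormone. It stood at 4.15, 4.73, 3.65 and 5.97 FPKM in KLF10AKO replicates 1 to 4, against 0.237, 0.171, 0.208 and 0.232 FPKM in WT, a log2 change of 2.83 (standard error 0.138, limma adjusted p = 2.69e-07). Its KLF10AKO values were highest in replicate 4 and lowest in replicate 3, the order of the B cell sum and the reverse of the order of Lep. The share of all genes tested with this order was not counted, so it cannot be called particular to Lepr. Of the 7 genes listed for leptin signalling, 5 rose, 1 fell and 1 did not pass, with the same counts for KLF10AKO replicate 4 alone, where 39.4% of all genes tested rose and 34.9% fell (32.4% and 29.7% with replicate 4 alone). Socs3, an inhibitor of leptin and cytokine receptors, averaged 14.7 ± 2.45 FPKM in KLF10AKO and 2.15 ± 0.238 FPKM in WT (SD, n = 4 each), a change of 2.51 (adjusted p = 2.10e-07), and the phosphatase genes Ptpn1 and Ptpn2, which damp the same pathway, rose by 1.06 and 1.11. The adaptor gene Sh2b1 rose by 0.87, and Irs2, named after its values were seen as the gene that fell, changed by -0.91. Relative to the adipocyte markers all 7 were higher, as were 95.7% of all genes. Lymphocytes also express this machinery, their markers were far higher in the same libraries, and their part in these values was not tested.

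For the ligands with a lower transcript, some receptors fell by about as much as the ligand. Cmklr1, the signalling receptor of chemerin, averaged 29.0 ± 1.65 FPKM in KLF10AKO and 102 ± 24.3 FPKM in WT, a log2 change of -1.77 (limma adjusted p = 6.12e-06). Gpr1, a further chemerin receptor, changed by -0.75 (adjusted p = 0.00194). With a mean of 0.428 FPKM in KLF10AKO, under the filter, and 1.08 FPKM in WT, Gpr1 was tested only through its WT values. Ccrl2, which binds chemerin without signalling, was at 0.07 and did not pass (adjusted p = 0.553). Aplnr, the apelin receptor, averaged 7.42 ± 0.526 FPKM in KLF10AKO and 28.7 ± 1.16 FPKM in WT (SD, n = 4 each), a log2 change of -1.88 (adjusted p = 2.83e-08) that was far larger than the -0.35 of its ligand. Of the proposed resistin receptors, Cap1 rose by 0.67 and Tlr4 changed by -0.82 (adjusted p = 9.60e-05 and 3.00e-05). The Wnt ligands set beside Sfrp5 went opposite ways, with Wnt5a, the ligand it is best known to bind, at -1.36 and Wnt11 at 0.72 (adjusted p = 4.60e-05 and 2.47e-04). The lipocalin 2 receptor gene Slc22a17 changed by -1.03, the insulin receptor gene Insr by -0.84, and Lrp2 and Ror2 were under the filter.

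**Figure D4:**
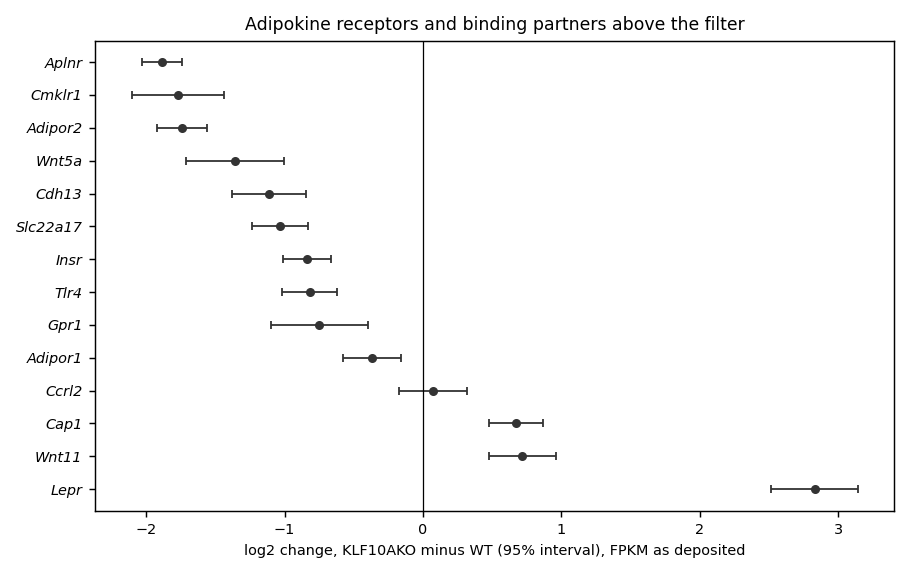
Log2 change (KLF10AKO minus WT, points, with 95% intervals, FPKM as deposited) of the 14 adipokine receptors and binding partners above the filter. Aplnr at -1.88, Cmklr1 at -1.77 and Adipor2 at -1.74 are lowest, Ccrl2 spans 0, and Lepr at 2.83 lies apart on the right.

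In the lists that follow, counts can be read against all genes tested, of which 34.9% fell and 39.4% rose, 29.7% fell and 32.4% rose with KLF10AKO replicate 4 alone, and 95.7% were higher and 0.400% lower relative to the adipocyte markers. Of 6 genes for folding and assembly of adiponectin, 5 fell and 1 did not pass, and 4 fell with replicate 4 alone, where Ero1l, an oxidase gene of the endoplasmic reticulum named after its values were seen, did not pass (log2 change -0.11, limma adjusted p = 0.292). Plod3, which hydroxylates the lysines of the collagen domain of adiponectin, changed by -1.50 and Gstk1, known as DsbA-L and tied to adiponectin multimers, by -1.14, whereas Erp44, which retains adiponectin in the endoplasmic reticulum, was at 0.10 (limma adjusted p = 0.203; named after its values were seen). Relative to the adipocyte markers all 6 were higher, close to the share of all genes. Of 11 genes of NAD synthesis and use, 5 rose, 5 fell and 1 did not pass, also with replicate 4 alone, which is near the shares of all genes. The NAD-consuming genes Parp1 and Cd38 rose by 1.596 and 1.582, and Qprt of the route from tryptophan rose by 2.16. With a mean of 0.267 FPKM in WT, under the filter, and 2.92 FPKM in KLF10AKO, Qprt was tested only through its KLF10AKO values. Nnmt, which methylates nicotinamide and is high in fat cells, changed by -1.70 (adjusted p = 3.64e-06). Relative to the adipocyte markers 10 of the 11 were higher and 0 lower, again near the share of all genes. Of 6 genes that process apelin or chemerin, 4 fell and 2 rose. The 2 that rose were Plaur at 1.78 and the cathepsin gene Ctss at 1.68 (limma adjusted p = 2.56e-07 and 3.05e-07). Of those that fell, the peptidase gene Mme, at -2.01, had the lowest p (limma adjusted p = 1.12e-06). Relative to the adipocyte markers 4 were higher and 1 lower.

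Among 20 further genes of secreted fat factors above the filter, of 25 listed, 15 fell, 2 rose and 3 did not pass, with a median log2 change of -1.05, beside 34.9% lower and 39.4% higher of all genes tested. With KLF10AKO replicate 4 alone 12 fell, 2 rose and 6 did not pass (29.7% lower and 32.4% higher of all genes). Relative to the adipocyte markers 15 of the 20 were higher and 0 lower, where 95.7% of all genes were higher. Angptl4, an inhibitor of lipoprotein lipase, averaged 126 ± 19.6 FPKM in KLF10AKO and 440 ± 16.3 FPKM in WT (SD, n = 4 each), a change of -1.81 (limma adjusted p = 9.85e-07), and C1qtnf9, a paralogue of adiponectin, changed by -1.32 (adjusted p = 1.27e-06). The 2 that rose were Dpp4, a membrane peptidase also found on T cells, at 2.98, and the cytokine gene Tnf at 2.92 (adjusted p = 5.09e-08 and 1.67e-06). The 3 that did not pass were Gpx3, Nucb2 and Agt, named here after their values were seen, with log2 changes of -0.01, 0.12 and 0.13.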

How the data were processed

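Poly(A)-selected RNA of 8 iWAT libraries was sequenced. The authors deposited FPKM; featureCounts 1.5.0-p3, edgeR 3.22.5, HISAT2 2.0.5 and mm10 were used, per the submitters' processing notes. The annotation, the strand option and what each tool did were not given in the sources used here. Multiplied by gene length, 100% of FPKM values above 0 came out as whole reads (within 0.01), at 15537863 to 17499132 reads per library. Divided by the library size that the FPKM imply, these sums were 1.05 to 1.09 in WT and 0.901 to 0.939 in KLF10AKO. The authors' scaling therefore differed between the groups, and this difference enters every log2 change of FPKM as deposited. Floors cover counting error only. Gene coordinates equalled those of GENCODE M21 for all 10 genes.

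With limma 3.58.1 in R 4.3.3, lmFit and eBayes with trend were fitted to log2(FPKM + 0.5), which understates the change of low genes, for 16012 genes with a mean of at least 0.5 FPKM, without covariates. Two-sided p-values had Benjamini-Hochberg adjustment over all genes tested, with a threshold of 0.05. The procedure was tested on counts simulated from the WT means with few genes changed. That test does not cover groups that differ in most genes, as these do. Exact permutation tests compared 4 against 4 libraries. The genes followed and all gene lists were chosen with earlier results of these data known. Named were the 10 adipokine genes, Klf10, every listed receptor, up to 4 passing genes of lowest p per other list, family and locus partners, and the 3 nearest profiles of Adipoq, Lep and Retn. Alternatives were other pseudocounts, filters and scalings, a replicate block, voom on the recovered reads, leaving out each library and KLF10AKO replicate 4 alone.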

Additional observations from a re-analysis of the deposited data

Results flagged for a closer look

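Apln in WT replicate 4, at 4.41 FPKM against 5.65 to 5.83 FPKM in the other 3 WT libraries, stood apart from its group: its gap to the nearest of them was 0.878 of the whole range of the group, above Dixon's critical value for 4 samples. Among 20 groups tested, chance alone flags about 1 in 20. Without that library the log2 change of Apln was -0.44 (limma adjusted p = 0.0227).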

How the results depend on the processing

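The balance of directions over all genes followed the scaling. Of the genes that passed, 53.0% were higher with FPKM as deposited, 63.4% as TPM, 41.2% after quantile normalization and 99.6% when scaled to adipocyte markers; the median log2 change of all genes moved by 0.20, -0.20 and 1.78 under the last 3. Adipoq, Lep, Retn, Rarres2, Sfrp5 and Nnat stayed lower and past the threshold under every alternative tried other than scaling to adipocyte markers. Under that scaling 4 genes of the 8 passed, all as higher, and the values were -0.03 for Adipoq, 0.0071 for Lep, 0.13 for Retn, 0.16 for Rarres2, 0.29 for Sfrp5, 0.51 for Nnat, 1.42 for Apln and 1.74 for Nampt. Nampt turned to 0.17 with TPM (limma adjusted p = 0.180) and ran from -0.082 to 0.030 as each library was left out, without passing. Apln lost its call with TPM (-0.18) and with no filter (-0.35, adjusted p = 0.0883), where Lcn2 passed instead. Leaving out each library in turn gave 11298 to 11862 genes and 6 to 7 adipokine genes past the threshold. Relative to adipocyte markers, where Lep and Adipoq lie at 0 within their error, the sign of Lep turned with a pseudocount of 1 (-0.0040) and with KLF10AKO replicate 4 alone (-0.076), and ran from -0.023 to 0.035 as each library was left out, while Adipoq ran from -0.052 to 0.0012. Rarres2 passed that test without KLF10AKO replicate 3 (0.19, adjusted p = 0.0389).

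Whether the replicate numbers shared by the groups pair the samples is not known. Same-numbered libraries had correlations of only 0.00300 to 0.0310, and those numbered 1, 3 and 4, but not 2, correlated best with their own number. With the replicate block 11726 genes passed against 11893 without it, and the same count of 7 adipokine genes. The block lowered the standard error of Retn from 0.120 to 0.0720 and that of Apln from 0.143 to 0.0917 (limma adjusted p of Apln = 0.0155). It raised that of Sfrp5 from 0.126 to 0.130.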
